A study of Mus musculus with 6 samples.

Results

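In sorted mouse astrocytes 10 long noncoding RNAs that are widely studied and often abundant in brain were followed: Malat1, Neat1, Meg3, Rian, Miat, Gas5, Snhg1, Snhg11, Rmst and Pantr1. They were taken by symbol from the gene table, and all 10 of 10 were found among 45777 listed genes. The name "long noncoding RNA" held for all 10 in the RefSeq annotation, although the deposited table lists Snhg11 as protein coding. The word "abundant" held for some of them only, since Rian had between 5 and 14 reads in a sample.

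The cells came from male mice on a C57BL/6 background, labelled WT, that carried Aldh1l1-CreERT2 and a floxed tdTomato reporter on both alleles. All mice received tamoxifen at 75 mg/kg for 5 days, so that the red protein marked cells in which the Aldh1l1 promoter was active, mainly astrocytes. At 8 weeks of age the STZ group received a single intraperitoneal injection of streptozotocin (STZ, a toxin of insulin-producing beta cells) at 150 mg/kg, and the vehicle group received sodium citrate buffer. In the scheme of the experiment injection fell on day 10 and brain collection on day 31, and STZ mice were used when blood glucose was above 250 mg/dl. Each sample pooled the tdTomato-positive cells sorted from 3 mice, which gave 3 vehicle and 3 STZ samples of polyadenylated RNA. The brain was dissociated before sorting, so each sample mixed astrocytes of several regions with any other cell that carried the label or passed the gate.

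Long noncoding RNAs are transcripts made by RNA polymerase II, as messenger RNA is, that are not known to be translated. Malat1 and Neat1 lie next to each other and stay in the nucleus, where Malat1 gathers in nuclear speckles with splicing factors and Neat1 builds paraspeckles. Meg3 and Rian are transcribed from the maternal copy of the imprinted Dlk1-Dio3 region. Miat (also called Gomafu) and Rmst are nuclear RNAs of neural cells, and Pantr1 is transcribed divergently from the neural transcription factor gene Pou3f3. Gas5, Snhg1 and Snhg11 are host genes: small nucleolar RNAs (snoRNAs), which guide chemical modification of ribosomal RNA, are cut from their introns, and the spliced remainder of such hosts is often degraded during translation by nonsense-mediated decay.

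All 6 libraries were deep, with total counts from 52529048 to 58749115 per sample. The cells carried the astrocyte label in their RNA: the 10 astrocyte markers summed to between 22238 and 26106 reads per 1e6 reads (CPM, scaled with TMM as described below) in every sample, against 58.9 to 92.3 for the 12 neuron markers. Other cells were present too. Summed oligodendrocyte markers ranged from 1071 to 3495 CPM, with vehicle sample 1 (2750) and STZ sample 1 (3495) the highest, and summed choroid plexus and ependymal markers ranged from 5880 in vehicle sample 1 to 17393 in vehicle sample 3. Of the 9 endothelial markers 7 (77.8%) had a higher value in STZ at an unadjusted edgeR p under 0.05. Of all genes tested 11.3% passed that mark in either direction. The endothelial marker sum ranged from 38.6 to 128 CPM in vehicle and from 117 to 219 CPM in STZ. Fewer cells of a type and less RNA per cell cannot be told apart in such bulk samples, and the part of other cells in the results below was not tested.

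The sequences below show how the RNAs could enter a library built on poly(A) tails and where the host genes start. The mature 3' ends of Malat1 and of the long form of Neat1 are made by RNase P and carry no poly(A) tail, while the short form of Neat1 ends at an ordinary polyadenylation site. The first pair gives the last 60 bases of each Neat1 form in GENCODE M21 (mouse build GRCm38, minus strand of chromosome 19), with any AATAAA, the polyadenylation signal, in capitals. The short form ends at chr19:5842307-5842366 and the long form at chr19:5824708-5824767.
Neat1 short form: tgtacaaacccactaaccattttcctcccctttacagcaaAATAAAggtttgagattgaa
Neat1 long form: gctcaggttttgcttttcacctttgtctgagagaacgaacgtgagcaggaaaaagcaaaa

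The signal stood in the last 50 bases of the short form and not of the long form. AATAAA was present in the last 50 bases of 26.7% of all 141515 transcripts of at least 60 bases, and of 23.4% of the 29479 that are annotated as lincRNA, antisense or processed transcripts. The longest run of A in the annotated Malat1 transcript is 12 A (capitals), at bases 6674 to 6685 of its 6983. It is shown within chr19:5795964-5796023 (minus strand). The annotated transcript overlaps another listed gene, Mascrna. Whether the run lies inside the mature Malat1 RNA or at its 3' end was not examined. The annotated Malat1 transcript also holds AATAAA in its last 50 bases. Its longest run of A compares with 5 A in the short and 7 A in the long form of Neat1.
Malat1: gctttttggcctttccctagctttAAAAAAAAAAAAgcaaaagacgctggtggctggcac

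Host genes of snoRNAs and ribosomal protein genes often start within a run of pyrimidines, the 5' terminal oligopyrimidine tract. The next pair gives 60 bases around an annotated start of Gas5 (chr1:161035141-161035200, plus strand) and of Snhg1 (chr19:8723462-8723521, plus strand). The Gas5 gene, with 4 listed transcripts, begins before its window, at chr1:161034601, so the window shows a start inside the gene. Both windows come from RefSeq GRCm38.p6, and base 26 is the first base of a transcript. Capitals mark a run of C and T, which in Gas5 covers that base (bases 25 to 30) and in Snhg1 begins after it (bases 30 to 38).
Gas5: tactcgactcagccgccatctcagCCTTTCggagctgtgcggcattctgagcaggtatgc
Snhg1: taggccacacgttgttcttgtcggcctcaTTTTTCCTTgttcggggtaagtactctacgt

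Snhg1 held 9 pyrimidines in a row and Gas5 held 6. A run of at least 7 on the gene's strand that touched the 10 bases on either side of the start was present in 19.7% of all 32851 start windows. At the level of genes it was present in 22.5% of 27025 genes, in 8 of 18 snoRNA host genes with a window, and in 34 of 61 genes of cytosolic ribosomal proteins. Of the 7 long noncoding RNAs with a window, Miat and Snhg1 had such a run.

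Levels were compared per length, as the fragments per kilobase of transcript and per 1e6 mapped fragments (FPKM) that the authors deposited. Malat1 (NCBI gene 72289, chr19:5795690-5802672, minus strand) stood far above the other members at 4401 ± 394 FPKM (SD, n = 6). It had more reads than any other gene in each of the 6 samples, between 1549612 and 2093857, and it ranked 5 of all genes by mean FPKM. Its reads were 64.8% to 68.5% of all reads on genes of the lncRNA biotype, a class of 12570 listed genes. Among the reads of the 10 members Malat1 held at least 98.3% in every sample.

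The other members covered more than 3 orders of magnitude. Pantr1 (chr1:42648200-42694825, minus strand) had 124 ± 19.7 FPKM, Gas5 (chr1:161034601-161038539, plus strand) 45.0 ± 4.35 FPKM and Neat1 (chr19:5824708-5845480, minus strand) 34.0 ± 11.1 FPKM (SD, n = 6). Each of these was higher than at least 89.6% of the genes tested. Snhg1 (chr19:8723487-8726326, plus strand) followed at 6.25 ± 0.954 FPKM, Rmst (chr10:92081746-92165178, minus strand) at 5.25 ± 1.35 FPKM, and Meg3 (chr12:109540996-109571729, plus strand) at 2.82 ± 0.789 FPKM (SD, n = 6).

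The lowest levels were those of Miat (chr5:112213228-112228948, minus strand) at 1.35 ± 0.412 FPKM, Snhg11 (chr2:158375713-158386474, plus strand) at 0.405 ± 0.191 FPKM and Rian (chr12:109603945-109661716, plus strand) at 0.0413 ± 0.0143 FPKM (SD, n = 6). Rian was lower than all but 3.37% of the genes tested. Its counting error alone at the mean count is 32.4%, close to the 34.6% variation of its FPKM over the samples.

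**Figure D1:**
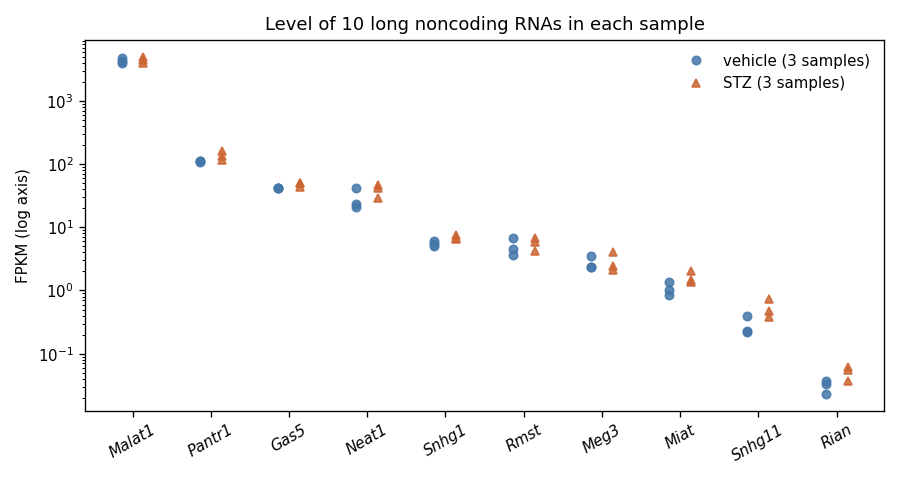
Deposited FPKM of each long noncoding RNA (log axis) in the 3 vehicle samples (circles) and the 3 STZ samples (triangles), ordered by mean. Malat1 lies between 3947 and 4948 FPKM and Rian between 0.0232 and 0.0615 FPKM, and the spread between samples is small beside the distance between most genes.

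Most neighbours in this order were separated by more than their spread. The ranges over the 6 samples did not overlap between Malat1 and Pantr1, Pantr1 and Gas5, Neat1 and Snhg1, Meg3 and Miat, Miat and Snhg11, or Snhg11 and Rian. They overlapped between Gas5 and Neat1, although Gas5 was higher in 6 of 6 samples (by 1.02 to 2.0 times), between Snhg1 and Rmst (Snhg1 higher in 5 of 6), and between Rmst and Meg3 (Rmst higher in 6 of 6, by 1.04 to 2.83 times). The order depends on which transcripts are taken as the length. With reads per kilobase of all annotated exons Neat1 passed Gas5, Miat moved from position 8 to 6, Snhg1 from 5 to 7, and 4 of the 10 members kept their position.

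STZ was then compared with vehicle for each member, with an edgeR quasi-likelihood test over 22337 genes that had a read in every sample, as all 10 members did. A gene was called when its Benjamini-Hochberg adjusted p was under 0.05 and its fold change over 1.5. This called 5 genes of all those tested, which is 0.0224%, and 0 of the 10 long noncoding RNAs. DESeq2, the tool of the study, called 234 genes, 1.05% of those tested, and likewise 0 of the 10. At an unadjusted p under 0.05 edgeR had 2 of the 10 members, Neat1 and Miat, where 11.3% of all genes tested passed that mark. Groups did not overlap in normalized CPM for 1 of the 10 members, Snhg1, and for 18.5% of all genes tested. With 10 genes, counts this close to the background are not a result about the members.

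**Figure D2:**
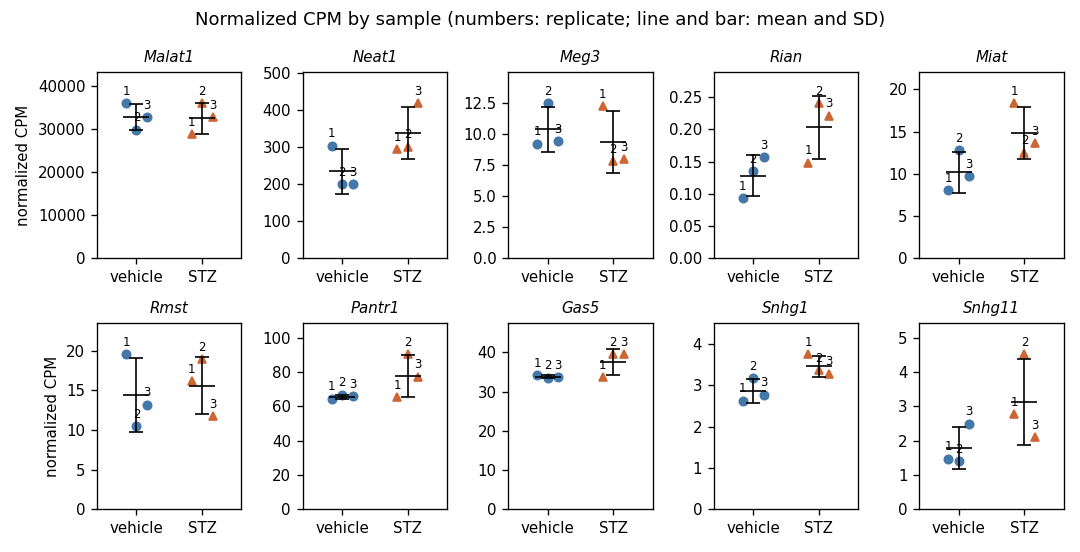
Normalized CPM (linear axes from 0) of each RNA in the vehicle samples (circles) and STZ samples (triangles), with the replicate number above each point and the mean with its SD (n = 3) as a line and bar. The vehicle and STZ points overlap in every panel except Snhg1.

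Malat1 was the most even of the large RNAs. Its normalized CPM was 35959, 29861 and 32842 in the vehicle samples and 28857, 35972 and 32732 in the STZ samples. The groups covered the same range, and the log2 fold change was -0.02 ± 0.18 (SE). The 95% interval ran from 0.744 to 1.31 times the vehicle level, so a change of 1.5-fold in either direction lies outside it. The sign of the small difference turned when vehicle sample 1 or STZ sample 1 was left out. The 11 nuclear speckle proteins, splicing and structural factors among which Malat1 is found, had none with an unadjusted p under 0.05 and none whose groups did not overlap, and their median log2 fold change was 0.00 beside 0.01 for all genes tested.

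Neat1, the scaffold of paraspeckles, had 305, 201 and 200 CPM in vehicle and 295, 302 and 419 CPM in STZ. Vehicle sample 1 lay among the STZ samples, and STZ sample 3 was the highest of all. The log2 fold change was 0.53 ± 0.20 (SE), with an interval of 1.04 to 2.0 times. Its edgeR quasi-likelihood p of 0.0334 became 0.407 after Benjamini-Hochberg adjustment, and the DESeq2 adjusted p was 0.175. Without vehicle sample 1 the log2 fold change was 0.75, with an adjusted p of 0.302 in edgeR and 0.00125 in DESeq2, the one setting among those run in which Neat1 was called. Without STZ sample 3 it was 0.34. Vehicle sample 1 was also the sample with the lowest choroid plexus and ependymal marker sum. In its group it had the highest sum of oligodendrocyte markers and of microglia markers (923 CPM beside 623 and 644). STZ sample 3, the highest in Neat1, had the lowest microglia marker sum of all samples, at 611 CPM. In its group it had the highest choroid plexus and ependymal sum (15427 CPM beside 11018 and 9029). Its oligodendrocyte sum was 1401 CPM, beside 3495 and 1280 in the other STZ samples. The part of these cells in the Neat1 level was not tested.

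Counts and FPKM disagreed on which samples were high in Neat1. FPKM was 41.1, 20.8 and 23.0 in vehicle and 42.2, 47.3 and 29.2 in STZ, so STZ sample 3 had the most reads and the lowest FPKM of its group. The ratio of count to FPKM gives the transcript length that the deposited values assume, and this length varied from sample to sample for Neat1. It was 6809, 8938 and 8014 bases in vehicle and 6783, 6144 and 13602 bases in STZ. For Malat1, which has a single listed transcript, it was 7000 bases in every sample. Over 2532 genes with a single listed transcript and at least 500 reads in every sample it varied by at most 0.0769% (CV over the 6 samples), and among 7420 genes with several transcripts only 7, Neat1 included, had as large a ratio of longest to shortest as its 2.21.

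The table lists exactly 2 transcripts for Neat1, of 3004 and 20771 bases, so the length can be read as a share of reads on each. The long form took 65.3%, 77.6% and 73.1% of Neat1 reads in vehicle and 65.1%, 59.7% and 91.1% in STZ. STZ sample 3 stood apart, and the other 5 samples lay between 59.7% and 77.6%. In normalized CPM the long form had 199, 156 and 146 in vehicle and 192, 180 and 381 in STZ. The short form had 106, 45.0 and 53.7 CPM in vehicle and 103, 122 and 37.3 CPM in STZ, so STZ sample 3 was the highest for the long form and the lowest for the short form. The long-form share averaged 72.0% ± 6.21 in vehicle and 72.0% ± 16.8 in STZ (SD, n = 3), and an exact two-sided permutation test gave p = 1. The long-form FPKM was 7.42 ± 1.23 in vehicle and 11.6 ± 5.08 in STZ (SD, n = 3), with an exact permutation p of 0.2 where 3 samples against 3 cannot go below 0.1. Because the 2 forms share their first part, the split rests on how StringTie divided shared reads, and reads of the long form entered a library that selects poly(A) although its end, printed above, has no signal.

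**Figure D3:**
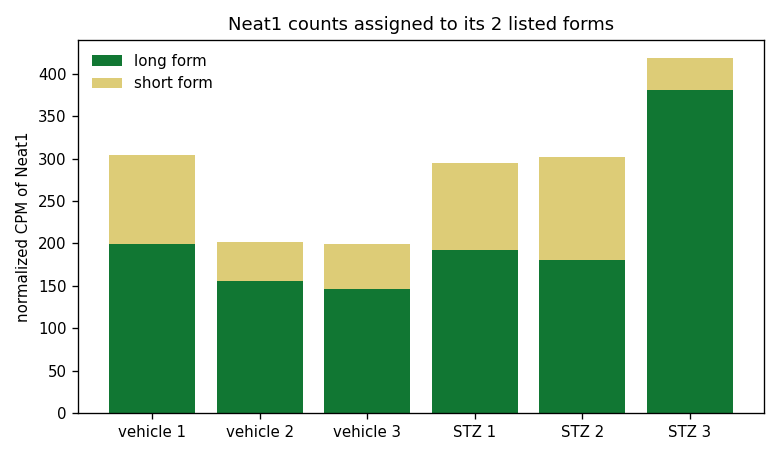
Normalized CPM of Neat1 in each sample, divided into the long form (lower part of the bar) and the short form (upper part) by the length implied by the deposited count and FPKM. The long part is between 146 and 199 CPM in 5 samples and 381 CPM in STZ 3, where the short part, 37.3 CPM, is the smallest.

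The 13 paraspeckle proteins, which bind Neat1, had 1 member with an unadjusted p under 0.05 and none called. That gene was Pspc1, a core paraspeckle protein, with 15.5 ± 0.251 CPM in vehicle and 19.5 ± 3.07 CPM in STZ (SD, n = 3), and the fitted log2 difference was 0.33 ± 0.13 (SE), with an edgeR quasi-likelihood adjusted p of 0.407. Hnrnpk, an RNA-binding protein needed for paraspeckles, was the other gene of the list whose groups did not overlap, at 732 ± 22.0 and 786 ± 40.6 CPM. The list's median log2 fold change was -0.02. Frmd8, the nearest protein-coding gene on the higher-coordinate side of the Malat1 and Neat1 pair, had a log2 fold change of 0.09. Among the other genes of that neighbourhood, Ltbp3, which encodes a binding protein of latent TGF-beta, had 66.7 ± 5.67 CPM in vehicle and 51.8 ± 5.74 CPM in STZ (SD, n = 3), fitted as a log2 fold change of -0.36 ± 0.10 (SE) and an edgeR quasi-likelihood adjusted p of 0.306.

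Meg3, an imprinted RNA with known growth-restraining activity, had a low level. Its normalized CPM was 9.25, 12.5 and 9.44 in vehicle and 12.3, 7.85 and 8.0 in STZ, with one high sample in each group. Fitted over all genes, Meg3 had a log2 fold change of -0.15 ± 0.22 (SE), and the interval of 0.632 to 1.29 times holds both directions. On log2 TPM the difference was 0.01, and the length implied by count and FPKM differed between samples here too, from 2888 to 3661 bases. Taken as a mixture of the listed form of 14548 bases with a short form of 1988 bases, the long form held 51.9%, 46.7% and 52.9% of Meg3 reads in vehicle and 36.1%, 40.2% and 51.5% in STZ. With the other listed short form, of 1896 bases, the shares were 54.5%, 49.5% and 55.4% in vehicle and 39.5%, 43.4% and 54.0% in STZ. STZ sample 3 lay within the vehicle range, and the exact permutation p was 0.2 on the first set of shares. The long form holds 6 runs of 10 or more A, and the short forms hold 0.

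Rian, which hosts a row of C/D box snoRNAs and the miRNAs miR-341, miR-1188 and miR-370, was hardly detected. It had 5, 7 and 9 reads in the vehicle samples and 9, 14 and 13 reads in the STZ samples. This is 0.0932, 0.135 and 0.157 CPM in vehicle and 0.148, 0.241 and 0.221 CPM in STZ. A log2 fold change of 0.65 ± 0.34 (SE) had an interval of 0.903 to 2.72 times, an edgeR quasi-likelihood p of 0.096 before and 0.517 after adjustment. Meg3 had 38.4 to 112 times the FPKM of Rian in every sample, although the 2 RNAs come from one imprinted cluster, and Mirg, the miRNA host further along, had 3 to 17 reads.

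The paternally expressed neighbour Dlk1, which encodes a Notch-like transmembrane protein, had a larger difference. Its CPM was 3.45, 2.52 and 2.20 in vehicle and 10.3, 5.89 and 8.10 in STZ, and the groups did not overlap. Dlk1 had a log2 fold change of 1.57 ± 0.27 (SE). It was not called by edgeR (quasi-likelihood test, adjusted p of 0.17) and was called by DESeq2 (adjusted p of 3.39e-06). It was the only called gene among the 7 of the Dlk1-Dio3 list that could be tested, where DESeq2 called 1.05% of all genes tested. Rtl1, the retrotransposon-like gene antisense to the noncoding strand, had 0.842 ± 0.337 CPM in vehicle and 1.37 ± 0.231 CPM in STZ (SD, n = 3), with overlapping groups. Dlk1 is also made by cells of the vessel wall. Of the 6 pericyte and smooth muscle markers 5 had a log2 fold change above 0. DESeq2 called 3 of the 6, Acta2, Myh11 and Rgs5, beside 1.05% of all genes tested. Pdgfrb, the most abundant, had 80.0 ± 3.81 CPM in vehicle and 75.6 ± 11.0 CPM in STZ (SD, n = 3). The sum over the 6 markers was 108, 108 and 127 CPM in vehicle and 173, 154 and 136 CPM in STZ. The part of vessel-wall cells in the Dlk1 level was not tested.

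Miat, a nuclear RNA that binds splicing factors, had the other unadjusted p under 0.05 among the members. Its CPM was 8.04, 12.8 and 9.76 in vehicle and 18.3, 12.5 and 13.6 in STZ. The highest vehicle sample was above the lowest STZ sample by a small margin, and STZ sample 1 was the highest. The log2 fold change was 0.54 ± 0.22 (SE), an interval of 1.02 to 2.06 times, with an edgeR quasi-likelihood p of 0.0393, or 0.420 after adjustment, and a DESeq2 adjusted p of 0.224. On the FPKM scale the groups did not overlap. The summed neuroblast and progenitor markers had the same order within the vehicle samples, at 183, 321 and 282 CPM. They were also highest in STZ sample 1, at 384 CPM beside 308 and 293. Both held for the summed neuron markers too, at 58.9, 86.4 and 73.0 CPM in vehicle and 92.3, 71.7 and 65.7 CPM in STZ. Between STZ samples 2 and 3 the order was reversed, since Miat was higher in sample 3 and both marker sums were higher in sample 2. No relation between Miat and these markers was computed. Of the 10 neuroblast and progenitor markers 2 (20%), Dlx2 and Cd24a, had a higher value in STZ at an unadjusted edgeR p under 0.05, beside 11.3% of all genes tested. The part of either kind of cell in the Miat level was not tested. The neighbour Cryba4, a crystallin gene, had 0.741 ± 0.0929 CPM in vehicle and 1.55 ± 1.10 CPM in STZ (SD, n = 3).

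Rmst, an RNA that binds the transcription factor Sox2, had 19.6, 10.5 and 13.2 CPM in vehicle and 16.2, 18.9 and 11.7 CPM in STZ. The STZ samples all lay within the vehicle range. For Rmst the log2 fold change was 0.11 ± 0.26 (SE), with an interval of 0.713 to 1.64 times, and its sign turned without vehicle sample 2 or without STZ sample 2.

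Pantr1 had the second highest level and very even vehicle samples, at 64.4, 66.8 and 65.8 CPM. The STZ samples had 65.5, 90.5 and 77.4 CPM, so that STZ sample 1 lay within the vehicle range and the other two lay above it. The log2 fold change was 0.24 ± 0.11 (SE), an interval of 0.984 to 1.42 times, with an edgeR quasi-likelihood p of 0.0685 and 0.476 after adjustment. Its divergent partner Pou3f3 starts 926 bases away on the other strand. Pou3f3 had 93.7, 83.1 and 82.3 CPM in vehicle and 79.5, 85.4 and 109 CPM in STZ, with a log2 fold change of 0.08 and an edgeR adjusted p of 0.841. The highest sample was STZ 2 for Pantr1 and STZ 3 for Pou3f3. No difference between the 2 genes was tested.

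Gas5, a host of 8 annotated snoRNA genes whose spliced RNA also binds the glucocorticoid receptor, was the least variable member in vehicle. It had 34.2, 33.5 and 33.7 CPM in vehicle and 33.7, 39.5 and 39.6 CPM in STZ. As for Pantr1, STZ sample 1 lay within the vehicle range and the other two lay above it. For Gas5 the log2 fold change was 0.15 ± 0.09 (SE), and its interval of 0.967 to 1.28 times leaves out a change of 1.5-fold. The use of strand in counting is not stated in the sources used here, so reads of Gas5 and of genes that overlap it cannot be fully told apart.

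Snhg1, a host of 8 snoRNA genes, was the member whose groups did not overlap. It had 2.63, 3.18 and 2.78 CPM in vehicle and 3.76, 3.37 and 3.29 CPM in STZ, from 141 to 228 reads. Every STZ sample was above every vehicle sample, by a margin smaller than the spread within either group. This gave a log2 fold change of 0.28 ± 0.19 (SE), with an interval of 0.889 to 1.65 times and an edgeR quasi-likelihood p of 0.187, or 0.608 after adjustment.

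Snhg11, a brain-enriched host of 2 snoRNA genes, had the largest fitted difference of the members. Its CPM was 1.47, 1.41 and 2.50 in vehicle and 2.77, 4.52 and 2.09 in STZ, from 73 to 263 reads. STZ sample 3 lay below vehicle sample 3, and STZ sample 2 was far above the rest. This gave a log2 fold change of 0.80 ± 0.36 (SE), with a wide interval of 0.967 to 3.14 times, an edgeR quasi-likelihood p of 0.0614 before and 0.465 after adjustment. It ranged from 0.44 to 1.10 as each sample was left out. Summed neuron markers were 58.9, 86.4 and 73.0 CPM in vehicle and 92.3, 71.7 and 65.7 CPM in STZ, and their relation to Snhg11 across the samples is given below. The part of neurons in the Snhg11 level was not tested.

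**Figure D4:**
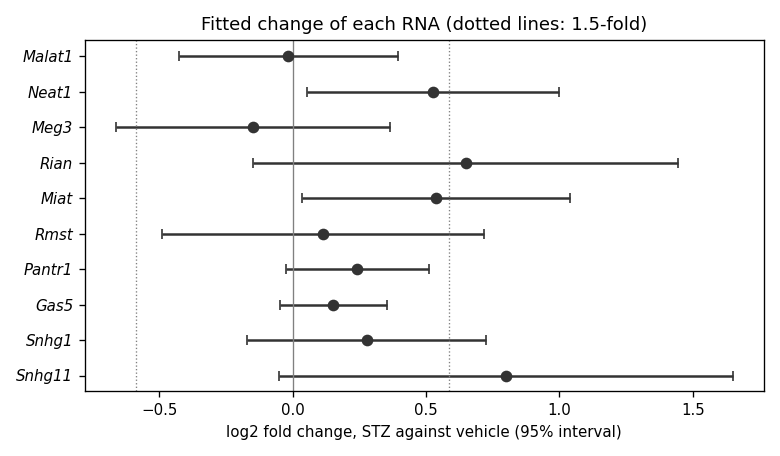
Log2 fold change of STZ against vehicle for each RNA from the edgeR fit (points) with its 95% interval (bars), with dotted lines at a 1.5-fold change. The intervals of Neat1 (0.05 to 1.0) and Miat (0.03 to 1.04) lie above 0, and those of Malat1, Gas5 and Pantr1 lie within 1.5-fold.

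The scaling bears on small differences of this size. With FPKM, which is set by the total count, the groups did not overlap for 4 members (Miat, Gas5, Snhg1 and Pantr1), where 18.8% of all genes tested did not overlap. Against the trimmed-mean (TMM) scaling used for the normalized CPM, scaling by total count shifted the log2 fold changes of all genes by a median of 0.05. In the edgeR fit 8 of the 10 members had a log2 fold change above 0 and their median was 0.26, beside 51.9% above 0 and a median of 0.01 for all genes tested. Since the members were picked with results of these data known, these figures describe them only.

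The 3 host genes among the members were set beside the full list of 21 snoRNA hosts. In this list 17 of 21 had a log2 fold change above 0 and the median was 0.24. An unadjusted edgeR p under 0.05 was found for 2 (9.52%), both higher in STZ, beside 11.3% of all genes tested. Of the list 0 were called by edgeR or DESeq2. Groups did not overlap for 6 of the 21 (28.6%), beside 18.5% of all genes tested. Snhg8 had 1.26 ± 0.108 CPM in vehicle and 2.14 ± 0.368 CPM in STZ (SD, n = 3) and a fitted log2 fold change of 0.77 ± 0.24 (SE) with an edgeR quasi-likelihood adjusted p of 0.331. Snhg12 had 1.59 ± 0.129 and 2.39 ± 0.351 CPM, with a log2 fold change of 0.59 ± 0.22 (SE) and an edgeR quasi-likelihood adjusted p of 0.402. Snhg6 had 1.19 ± 0.113 and 1.61 ± 0.265 CPM. Below 0 were Snhg5, Snhg16, Snhg17 and Snhg14, the long host of the Prader-Willi snoRNA clusters. Snhg14 had 38.7, 15.8 and 13.4 CPM in vehicle and 15.6, 15.5 and 13.4 CPM in STZ, a log2 fold change of -0.61 that was 0.02 without vehicle sample 1. Without the 3 members, 14 of the 18 other hosts were above 0, with a median of 0.23.

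The genes of cytosolic ribosomal proteins, which share the pyrimidine-rich start with many hosts, showed values of the same size. Of the 79 that could be tested, 77 had a log2 fold change above 0, with a median of 0.24. The other two were Rpl32l and Rpl3l, genes named for their likeness to Rpl32 and Rpl3. In 22 (27.8%, beside 11.3% of all genes tested) the unadjusted edgeR p was under 0.05, each of them higher in STZ, and 0 were called. Rpl23 had 26.5 ± 2.53 CPM in vehicle and 35.3 ± 1.39 CPM in STZ (SD, n = 3) and a fitted log2 fold change of 0.41 ± 0.09 (SE) with an edgeR quasi-likelihood adjusted p of 0.252. Rpl14, Rpl27 and Rpl30 had log2 fold changes of 0.32, 0.39 and 0.39. The sum over the list was 3247, 4070 and 4249 CPM in vehicle and 4392, 4405 and 4646 CPM in STZ, so vehicle sample 1 was low and the other vehicle samples were close to the STZ samples. Without vehicle sample 1 the median was 0.12 and 69 of 79 were above 0. For the snoRNA hosts the median was 0.22 without that sample, with 19 of 21 above 0, and it was lowest, at 0.16 with 17 of 21 above 0, without vehicle sample 2. For the hosts that are not members it was 0.13 without vehicle sample 2, beside 0.23 with all samples. Ribosomal protein genes have many near-identical processed pseudogenes, so reads may be divided among copies.

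The factors that handle such RNAs had small values. Of 14 nonsense-mediated decay factors 2 (14.3%) had an unadjusted edgeR p under 0.05, both higher in STZ, beside 11.3% of all genes tested. Of the list 0 were called, and the median log2 fold change was -0.06. Eif4a3, a helicase of the exon junction complex, had 109 ± 5.77 CPM in vehicle and 124 ± 6.82 CPM in STZ (SD, n = 3). Casc3, another part of that complex, was not among the 2 and was lower in STZ, at 34.3 ± 1.16 and 29.96 ± 3.25 CPM. The 4 box C/D snoRNP proteins, which bind the snoRNAs cut from the hosts, had a median of 0.09, with 0 of 4 at an unadjusted p under 0.05. Among 12 protein partners of the members, Ezh2, the methyltransferase of Polycomb repressive complex 2, had 16.01 ± 1.67 CPM in vehicle and 19.7 ± 0.915 CPM in STZ (SD, n = 3), with a log2 fold change of 0.30 ± 0.11 (SE) and an edgeR quasi-likelihood adjusted p of 0.394. Its partner Suz12 had 22.9 ± 1.63 and 24.9 ± 0.327 CPM.

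Gas5 is known to bind the glucocorticoid receptor, and 8 targets of that receptor were read beside it. All 8 had a log2 fold change above 0 (median 0.36), and edgeR gave an unadjusted p under 0.05 for 5 of them (62.5%, beside 11.3% of all genes tested). By the full threshold 2 were called in DESeq2, beside 1.05% of all genes tested, and 0 in edgeR. Fkbp5, a receptor co-chaperone, had 5.03 ± 1.17 CPM in vehicle and 18.9 ± 7.66 CPM in STZ (SD, n = 3) and a fitted log2 fold change of 1.91 ± 0.33 (SE) with an adjusted p of 0.169 in edgeR's quasi-likelihood test and 4.21e-08 in DESeq2. Dusp1, a phosphatase of MAP kinases, had 145 ± 43.1 and 251 ± 35.9 CPM, with a log2 fold change of 0.79 ± 0.20 (SE) and a DESeq2 adjusted p of 0.00635. No relation between these genes and Gas5 was tested.

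**Figure D5:**
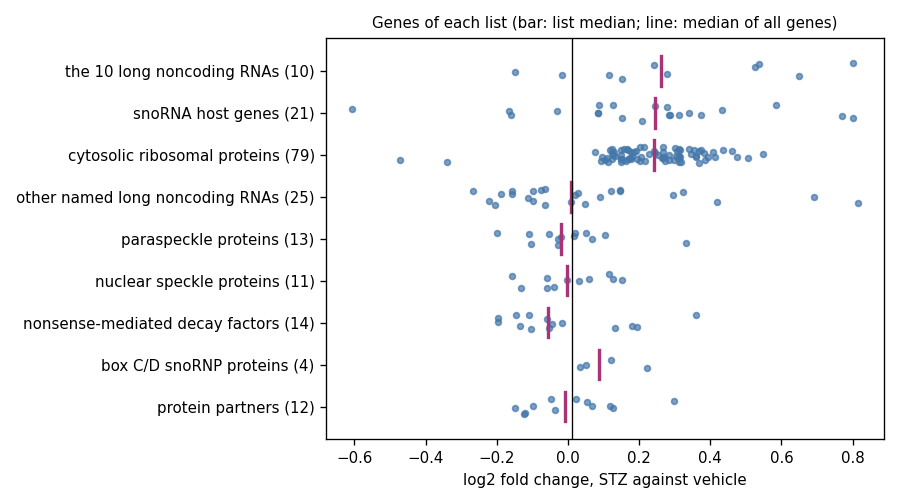
Log2 fold change of STZ against vehicle for the genes of each list (points, number tested in parentheses), with the list median as a bar and the median of all genes tested (0.01) as a vertical line. The snoRNA hosts (median 0.24) and ribosomal protein genes (0.24) lie mostly right of the line, and the 6 lists drawn beneath them have medians between -0.06 and 0.09.

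Other named long noncoding RNAs gave a more even picture. Of 35 names listed, 29 were in the gene table and 25 could be tested. Of these 13 were above 0, the median log2 fold change was 0.01, and 0 were called by edgeR or DESeq2. An unadjusted edgeR p under 0.05 was found for 12%, beside 11.3% of all genes tested. With an unadjusted p under 0.05 stood Mir9-3hg, a host of miR-9, at 55.3 ± 5.85 CPM in vehicle and 69.2 ± 6.52 CPM in STZ (SD, n = 3), Mir17hg, the host of the miR-17 cluster, at 0.458 ± 0.0937 and 0.810 ± 0.0847 CPM, and Kcnq1ot1, an imprinted antisense RNA, at 74.8 ± 2.35 and 82.9 ± 1.72 CPM. Firre, an X-linked nuclear RNA, had 94.2 ± 13.0 CPM in vehicle and 78.2 ± 7.87 CPM in STZ with groups that did not overlap, and an edgeR quasi-likelihood adjusted p of 0.456. Over all 3839 genes of the lncRNA biotype that could be tested, edgeR called 0 and DESeq2 20. Of all 22337 genes tested DESeq2 called 234 (1.05%). At an unadjusted edgeR p under 0.05 stood 193 higher and 141 lower, which is 8.70% of the class beside 11.3% of all genes tested. The median log2 fold change of the class was 0.03.

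In all, 5 relations between members, or between members and neuron markers, were computed across the 6 samples on log2 normalized CPM. Over all samples none passed 0.05. The largest was between Meg3 and the summed neuron markers, with Pearson r = 0.78 (exact permutation p = 0.0778, adjusted over 5 relations 0.389) and Spearman rho = 0.71 (exact permutation p = 0.136, adjusted 0.438), and r was 0.93 without the 2 samples farthest from the median of the marker sum. Meg3 and Rian had r = -0.53 (exact permutation p = 0.336, adjusted 0.694) and rho = -0.66 (exact permutation p = 0.175, adjusted 0.438), and r = -0.82 without the 2 farthest samples. Malat1 and Neat1 had r = 0.29 (exact permutation p = 0.556, adjusted 0.694) and rho = 0.26 (exact permutation p = 0.658, adjusted 0.892), with r = 0.07 without them. Gas5 and Snhg1 had r = 0.28 (exact permutation p = 0.556, adjusted 0.694) and rho = 0.03 (exact permutation p = 1, adjusted 1), and r turned to -0.60. Snhg11 and the neuron markers had r = 0.15 (exact permutation p = 0.75, adjusted 0.75) and rho = 0.20 (exact permutation p = 0.714, adjusted 0.892), and r turned to -0.52. As deviations from the group means, tested by exact permutation within the groups (36 orders, smallest p 0.0278), Meg3 and the neuron markers had r = 0.89 (p = 0.0556, adjusted 0.139), and Gas5 and Snhg1 had r = -0.66 (p = 0.0278, adjusted 0.139), opposite in sign to the value over all samples. On the same scale Meg3 and Rian had r = -0.46 (exact permutation p = 0.444, adjusted 0.556), Malat1 and Neat1 r = 0.49 (exact permutation p = 0.278, adjusted 0.463), and Snhg11 and the neuron markers r = 0.05 (exact permutation p = 0.944, adjusted 0.944).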

How the data were processed

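RNA of sorted tdTomato-positive cells was measured in 3 vehicle and 3 STZ samples. The authors trimmed reads with Trimmomatic 0.38, aligned them to mm10 with HISAT2 2.1.0 and quantified them with StringTie 2.1.3b, per the labels' processing notes and the study's methods. They deposited a gene table of raw read counts, FPKM and TPM. Columns were matched to samples by the labels. Here the deposited counts of genes with at least 1 read in every sample (22337) were tested with edgeR 4.0.16 (TMM, quasi-likelihood, Benjamini-Hochberg), with DESeq2 1.42.0 and limma 3.58.1 on log2(TPM + 1) and log2(TPM + 0.1) as alternatives. Intervals are 95%, from the fitted standard error. Total counts ranged from 52529048 to 58749115, and 3 reads equal at most 0.0571 CPM. No 2 samples agreed within sampling noise (chi-square per gene at least 13.2). The labels do not say more of the samples' independence than that each is a pool, so p-values measure the spread between these pools.

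The members and all gene lists were chosen with earlier results of these data known. Named list genes were those called by edgeR or DESeq2, otherwise up to 4 with the smallest edgeR p among those whose groups did not overlap, plus neighbours and partners of members. Snhg14, Snhg5, Snhg16, Snhg17, Rpl32l and Rpl3l were named after their values were seen. The implied transcript length was count divided by the product of FPKM and total count, put on the scale of bases, centred by sample on single-transcript genes and divided by 1.06, the median ratio of implied to annotated length over 2254 genes. Positions and sequences came from RefSeq (GRCm38.p6) and GENCODE M21. The fits were tested on simulated counts. Same-numbered samples did not deviate together (mean correlation -0.15) and were not paired. Some genes of the lists are not reported by name here.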

Additional observations from a re-analysis of the deposited data

How the results depend on the processing

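None of the 10 long noncoding RNAs was called under any edgeR or limma alternative, nor by DESeq2 with all samples. The number of genes called over the whole table moved from 5 to 234 with DESeq2, and to 0 with the replicate block, with limma on log2(TPM + 1) and with limma on log2(TPM + 0.1), and was 0 to 1 as each sample was left out in edgeR. The numbers of the samples only name them (same-numbered pairs correlated at -0.10, -0.16 and -0.18), and with the replicate block no member had an unadjusted p under 0.05 (Neat1 0.0518, Miat 0.0846). The next alternatives were added after seeing the data. Leaving Malat1 out of the library sizes called 5 genes and no member, DESeq2 with a sample left out called 119 to 692 genes and a member (Neat1) in the fit without vehicle sample 1 only, and log2 TPM in place of normalized CPM put no relation past 0.05. Deviations from the group means, also added later, turned the relation of Gas5 and Snhg1 from r = 0.28 to r = -0.66 (exact permutation p = 0.0278, adjusted 0.139). The log2 fold change of Malat1 ran from -0.0945 to 0.0630 as each sample was left out, turning positive without vehicle sample 1 or STZ sample 1, that of Rmst ran from -0.0843 to 0.394, turning negative without vehicle sample 2 or STZ sample 2, that of Snhg14 ran from -0.893 to 0.020, positive only without vehicle sample 1, and that of Meg3 turned to 0.01 on both limma scales (0.0087 and 0.0055). The cause was not tested. Rian was not tested under filterByExpr, and its DESeq2 adjusted p is undefined. The order of levels was the same with TPM, and 4 of 10 positions were the same per kilobase of exon.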
